A study of Mus musculus with 8 samples.

Results

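The genes described here encode the nuclear-encoded subunits of the mitochondrial respiratory chain and ATP synthase, measured in NMuMG, a mouse mammary gland cell line of epithelial origin. Members were chosen by symbol, as Nduf genes of the a, b, c, s and v series, the 4 Sdh genes, the Uqcr genes, the Cox4 to Cox8 genes and the Atp5 genes, with a mean of at least 10 normalised counts over the 8 libraries. Of 81 matching rows among 18102 genes, 76 met that mean. They comprise 7 core and 27 accessory subunits of complex I, 4 subunits of complex II, 8 of complex III, 13 of complex IV and 15 of complex V (ATP synthase). The symbols of the remaining 2, Atp5s and Atp5sl, match by name, but their products are not ATP synthase subunits. The 13 subunits encoded by mitochondrial DNA are not analysed here.

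RNA sequencing was done on 8 libraries, 2 in each of 4 groups. Both WT cells and those carrying the label RREB1 knockout (KO) were starved of serum for 6 h. Each genotype then received either 2.5 µM SB505124, which blocks the kinase of the type I TGFβ receptor, for 6 h, or 100 pM TGFβ for 1.5 h. The SB505124 libraries are therefore not untreated, and drug and duration of treatment cannot be told apart. All KO columns carry the code KO1, taken here as 1 clone, so the clone and the genotype cannot be told apart either. The title of the series sets TGFβ and RREB1 side by side as regulators of the epithelial-to-mesenchymal transition, and the 4 groups allow the response to TGFβ to be compared between genotypes.

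Reads counted over the 18102 genes numbered 25144204 to 32143113 per library, and shares of reads below are shares of these sums. The targeted gene, Rreb1, was not lower in the libraries labelled KO: its normalised counts were 1055 and 1033 in WT and 1327 and 1343 in KO-labelled cells under SB505124, and 1959 and 1769 against 2481 and 2241 under TGFβ. A small edit need not change the number of transcripts, and these counts do not test for one, so KO is used below as a label. Of the epithelial markers, Cdh1 (13123 to 26362), Krt8 (59377 to 115829) and Krt18 (76633 to 118093) were high in every library, while Epcam lay between 0 and 36.6 and Krt7 had a mean of 8875 in WT and 20.5 in KO-labelled cells under SB505124. The muscle markers Ckm, Myh6, Myh7 and Actc1 lay between 0 and 4.05, and Tnnt2 between 532 and 4094. Summed over their lists, basal markers went from 19.0 and 21.3 under SB505124 to 52.6 and 60.0 under TGFβ in WT, and from 68.9 and 89.0 to 74.1 and 83.0 in KO-labelled cells (lower and higher library). Fibroblast markers went from 127 and 131 to 166 and 172 in WT, and from 35.4 and 45.8 to 142 and 185 in KO-labelled cells. Within that sum the mean of Pdgfra went from 36.3 to 117 in WT and from 39.2 to 137 in KO-labelled cells. The mean of Dcn fell from 90.1 to 48.9 in WT and was 0.432 and 0 in KO-labelled cells. Epithelial markers went from 164110 and 172636 to 227763 and 229875 in WT, and from 164237 and 175601 to 246509 and 248981 in KO-labelled cells. In WT the mean of Krt8 went from 61701 to 88684 and that of Krt18 from 81025 to 114408, and Krt7 and Epcam rose too. The mean of Cdh1 fell from 16766 to 13904 in WT and rose from 22692 to 24901 in KO-labelled cells. Leukocyte markers lay between 464 and 680 and endothelial markers between 1.86 and 38.9. The part of these shifts in the members' changes was not tested. The labels do not say whether replicates were separate cultures, so the p-values below reflect the spread among these samples alone, which may be technical.

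The respiratory chain passes electrons from NADH (complex I) and succinate (complex II) through ubiquinone, complex III and cytochrome c to oxygen at complex IV. The proton gradient built on the way drives ATP synthesis by complex V. Complexes I, III, IV and V combine subunits encoded in the nucleus with others encoded in mitochondrial DNA, whereas all subunits of complex II are nuclear. The transcription factors NRF1, GABP (which binds ETS motifs) and YY1 are textbook regulators of the nuclear genes.

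Promoters of the members were searched for the motifs of NRF1, ETS factors and YY1, and for CCAAT and TATAAA. RefSeq windows of 250 bases before to 50 bases after the gene start (GRCm38) were at hand for 62 of the 76 genes. Among the 14 without a window were Atp5a1, Atp5f1, Atp5s, Atp5sl, Cox4i1, Cox6c, Ndufa2, Ndufb9, Ndufs1, Sdhc, Uqcrb, Uqcrc2 and Uqcrq. On either strand, the core of the NRF1 motif, GCGCNTGCG with N for any base, was found in 22 of the 62 (35.5%), against 7.12% of all 27025 genes with windows and 15.5% of the 9426 tested genes with windows. The ETS motif CCGGAAG was found in 16 (25.8%), against 9.93% and 20.3%, and the YY1 motif AAGATGGCG in 7 (11.3%), against 1.64% and 3.58%. At least 1 of these 3 motifs was found in 37 (59.7%), against 16.6% and 34.4%. CCAAT was found in 27 (43.6%), against 41.1% and 43.1%, and TATAAA in 5 (8.07%), against 15.7% and 8.83%. A match of letters does not show that a factor is bound there, and whether motifs went with the members' changes was not tested.

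The 150 bases before the start of 4 members are printed, 3 because their TGFβ response differed between genotypes and Cox7a1 because it had the largest fold change. The windows of Cox7a2l and Cox7a2, whose responses also differed, held none of the motifs searched and are not printed. Cox6c, the other gene whose response differed, had no window. Capitals mark motif matches in either orientation within the 150 bases. They are NRF1 in Ndufs6 and Atp5k, the reverse complement of ETS with CCAAT in Uqcrh, and the reverse complement of CCAAT in Cox7a1. Outside the printed stretch, the full window of Ndufs6 also held the YY1 and CCAAT motifs, and that of Atp5k the ETS motif. The printed stretches are chr13:73328483-73328632 (minus strand) for Ndufs6, chr5:108434400-108434549 (minus strand) for Atp5k, chr4:116075071-116075220 (minus strand) for Uqcrh and chr7:30184021-30184170 (plus strand) for Cox7a1.
Ndufs6: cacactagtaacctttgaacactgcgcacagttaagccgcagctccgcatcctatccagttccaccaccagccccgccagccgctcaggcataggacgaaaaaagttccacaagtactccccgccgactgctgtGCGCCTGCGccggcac
Atp5k: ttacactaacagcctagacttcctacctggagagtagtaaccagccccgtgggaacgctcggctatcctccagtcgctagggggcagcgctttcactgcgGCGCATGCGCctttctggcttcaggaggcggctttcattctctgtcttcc
Uqcrh: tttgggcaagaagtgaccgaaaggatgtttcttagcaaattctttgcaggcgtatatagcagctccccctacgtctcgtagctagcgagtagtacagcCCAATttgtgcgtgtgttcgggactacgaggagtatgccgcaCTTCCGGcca
Cox7a1: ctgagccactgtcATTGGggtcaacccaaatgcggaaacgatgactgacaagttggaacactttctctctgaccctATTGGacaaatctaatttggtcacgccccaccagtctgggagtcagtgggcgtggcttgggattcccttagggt

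Levels were compared between genes as normalised counts per kb of transcript. The median member stood at 3456 per kb, against 313 for all tested genes. By complex the medians were 6682 for complex IV, 5443 for V, 4957 for III, 2711 for II, 2122 for accessory and 1600 for core subunits of complex I. Atp5b, the catalytic beta subunit of ATP synthase, was highest at 25176 per kb. Cox4i1, the widely expressed isoform of subunit 4, followed at 15907, then Cox8a (14111), the alpha subunit gene Atp5a1 (11717), Atp5g3 (11468) and Ndufa4 (10717), a subunit first assigned to complex I and now to complex IV. Within the other complexes the highest levels were those of Ndufb8 (5949, accessory subunits of complex I), Sdhd (3994) and Uqcrq (7891). The lowest 6 were Cox7a1 (70.3), Atp5s (95.2), Atp5sl (165), Ndufb4 (209), Atp5l (648) and Ndufc1 (805). Many of these genes have processed copies elsewhere in the genome, and how reads fitting several places were counted is not given in the sources used here, so low levels such as those of Ndufb4 and Atp5l are uncertain.

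**Figure D1:**
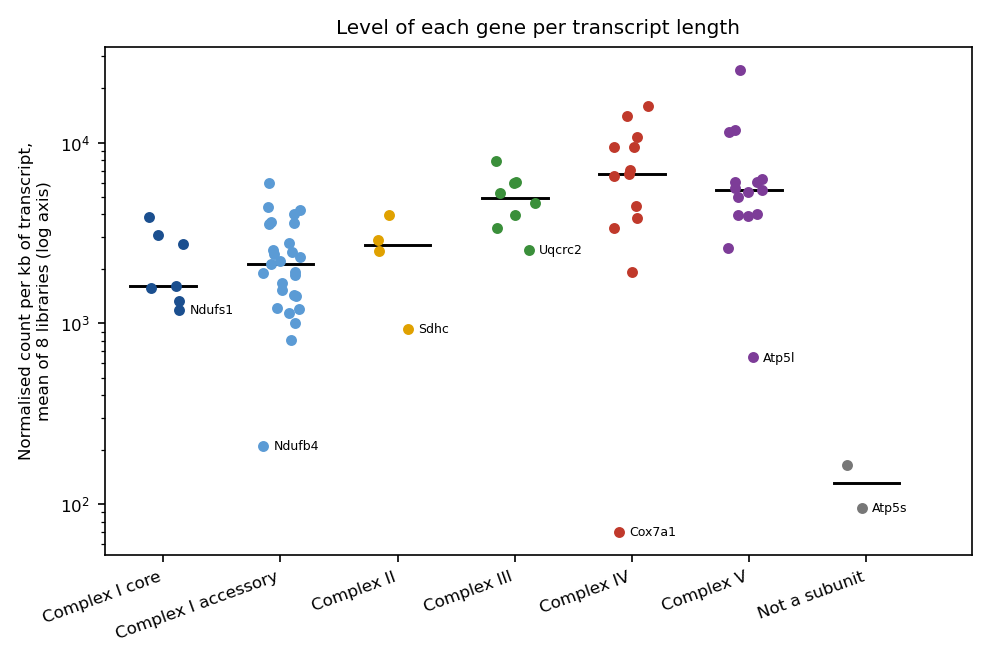
Level of each of the 76 genes (points) as normalised count per kb of transcript, mean of 8 libraries, on a log axis, by complex; bars are medians and the lowest gene of each complex is named. Complex IV has the highest median (6682) and also the lowest gene, Cox7a1 at 70.3.

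Isoforms typical of other tissues were low. Cox7a1, the heart and skeletal muscle isoform of subunit 7a, was the lowest gene that met the mean. The rows left out were Cox4i2 (a lung and hypoxia isoform, mean 4.09), Cox6a2 (muscle, 1.59), Cox8b (muscle, 0.853), Cox6b2 (testis, 0.742) and Ndufa4l2 (a hypoxia-responsive relative of Ndufa4, 0.731). The widely expressed counterparts Cox7a2, Cox6a1 and Cox8a stood at 6682, 9468 and 14111 per kb. The 3 Atp5g genes encode the same mature subunit c of the ATP synthase rotor. Atp5g3 supplied 68.1% to 72.6% of their summed normalised counts, Atp5g1 18.7% to 21.7% and Atp5g2 8.71% to 11.3% over the 8 libraries.

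The 76 genes together took 1.01% to 1.27% of the reads counted over all genes. Their summed normalised counts were 285488 ± 15320 in WT under SB505124 and 350476 ± 19214 under TGFβ, and 295337 ± 6672 and 317781 ± 14456 in KO-labelled cells (SD, n = 2 each). The lowest WT library under TGFβ (336890) lay above all libraries of the other 3 groups, of which the highest was KO-labelled TGFβ replicate 2 (328003). In bulk RNA, fewer cells expressing a gene and less RNA per cell cannot be told apart.

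**Figure D2:**
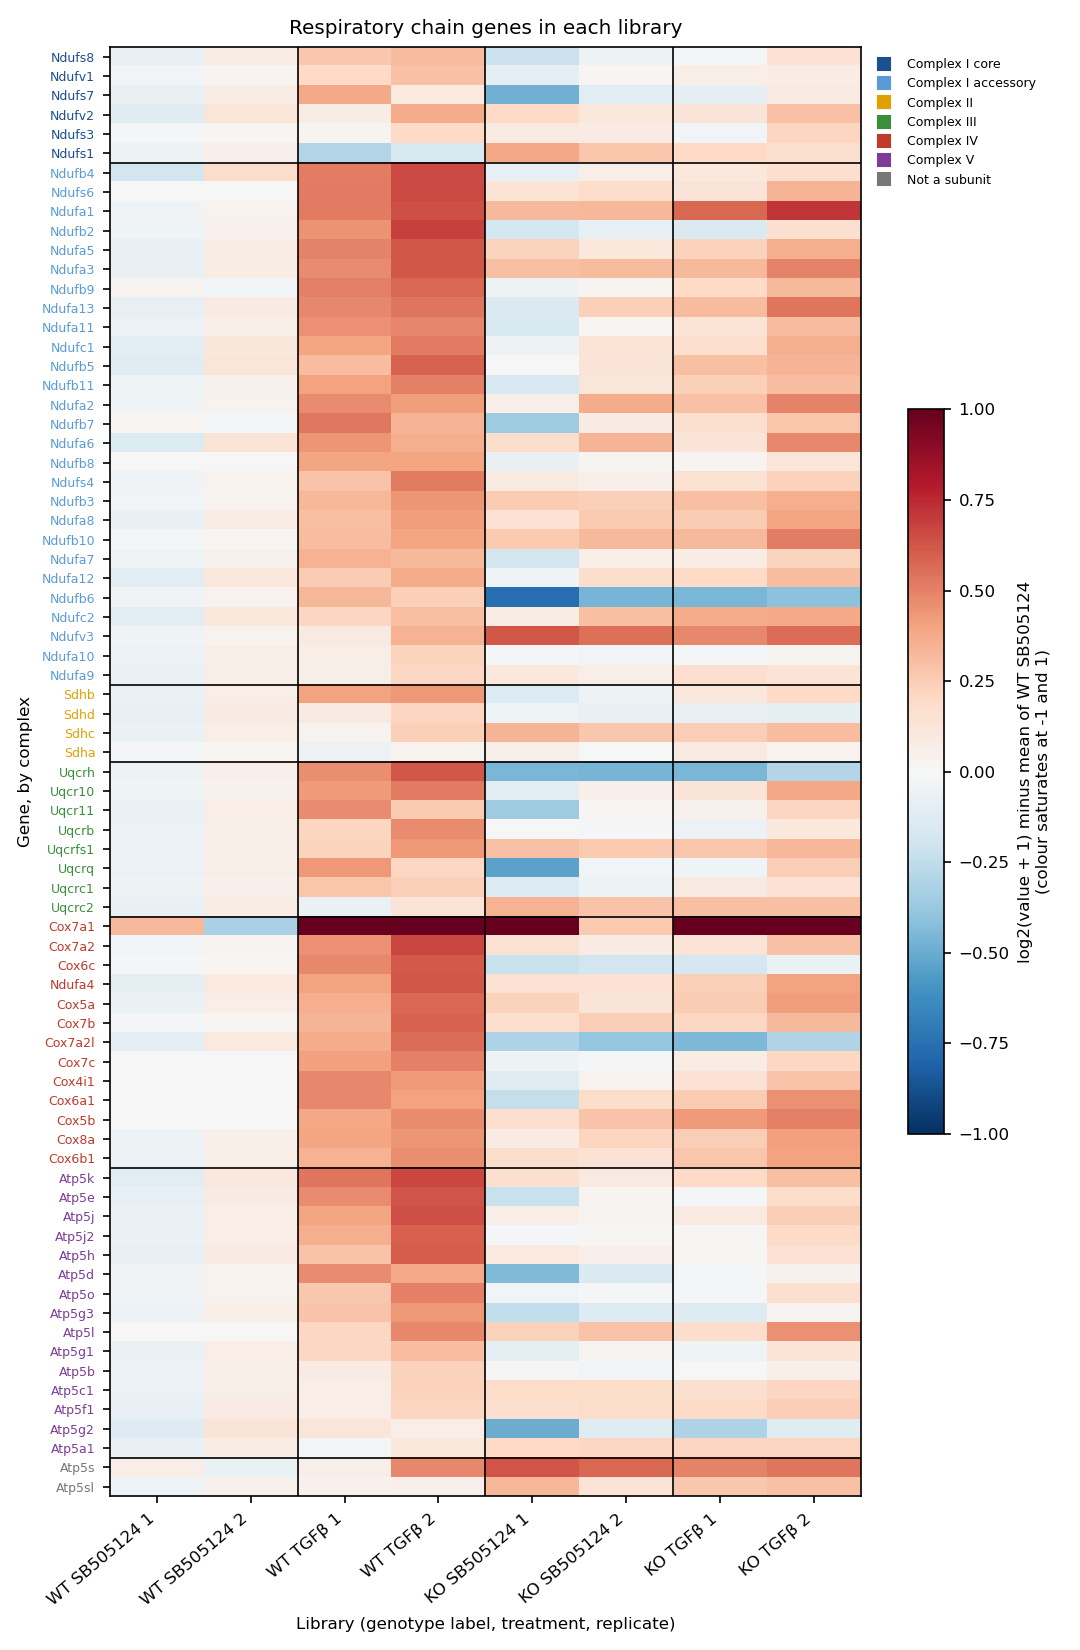
Each row is 1 of 75 of the genes, grouped by complex, and each column 1 library; colour is log2(value + 1) minus the mean of the 2 WT SB505124 libraries. The WT TGFβ columns are red for most genes, with Ndufs1 the clearest blue row there, while the KO-labelled columns are paler and hold blue rows such as Ndufb6, Uqcrh and Cox7a2l.

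In WT cells, TGFβ against SB505124 raised 57 of the 76 genes and lowered 1 (limma adjusted p under 0.05 over 12498 tested genes). Of all tested genes, 20.2% rose and 23.2% fell. The median log2 fold change of the members was 0.40 (1.32-fold), against -0.01 for all tested genes. All 13 genes of complex IV rose (median 0.46), as did 24 of 27 accessory subunits of complex I (0.43), 10 of 15 genes of complex V (0.36) and 6 of 8 of complex III (0.34). Of the 7 core subunits of complex I, 3 rose and 1 fell (0.23), and of the 4 complex II genes 1 rose (0.14). At an unadjusted p under 0.05 no gene of complexes II to V fell, nor did any by edgeR or DESeq2. The share of reads from Rn45s, a ribosomal RNA precursor, was 0.718% and 0.614% in WT under SB505124, 1.06% and 0.743% under TGFβ and 0.485% to 0.509% in the KO-labelled libraries, highest in WT TGFβ replicate 1. Its part in the members' change was not tested.

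Among the accessory subunits of complex I, Ndufs6, a zinc-binding subunit of the arm that receives electrons, read 1308 and 1304 under SB505124 and 1872 and 2068 under TGFβ. Both TGFβ libraries lay above both SB505124 libraries, a log2 fold change of 0.59 ± 0.09 (SE; limma adjusted p = 3.3e-05). Ndufa1, a small membrane subunit needed for assembly, went from 1089 and 1137 to 1597 and 1740, a change of 0.58 ± 0.08 (limma adjusted p = 2.46e-05) with no overlap. The membrane-arm genes Ndufb4 and Ndufb2 rose by 0.59 and 0.57. The 3 accessory genes that missed the threshold were Ndufv3 (0.22), Ndufa10 (0.14) and Ndufa9 (0.13).

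The core subunits of complex I carry its redox centres. Ndufs1, the largest of them and a carrier of iron-sulfur clusters, went the other way: it read 2785 and 2990 under SB505124 and 2351 and 2580 under TGFβ. Its groups did not overlap, and it fell by 0.23 ± 0.08 on the log2 scale (limma adjusted p = 0.0281). That call was lost without any 1 of WT SB505124 replicate 1, WT SB505124 replicate 2 or WT TGFβ replicate 1. Ndufv1, which binds FMN and oxidises NADH, rose by 0.25 (limma adjusted p = 0.0143), and Ndufs8 by 0.29. Ndufs7 (0.23) and Ndufv2 (0.22) were among those that missed the threshold.

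In complex II, Sdhb, the iron-sulfur subunit, rose by 0.42 ± 0.08, from 2510 and 2744 to 3463 and 3551 (limma adjusted p = 0.000348). The flavoprotein gene Sdha read 8166 and 8413 under SB505124 and 7980 and 8495 under TGFβ, so its groups overlapped (-0.01, limma adjusted p = 0.932). The membrane anchor genes Sdhc (0.14) and Sdhd (0.15) missed the threshold.

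In complex III, Uqcrh, the hinge protein next to cytochrome c1, read 3196 and 3443 under SB505124 and 4568 and 5094 under TGFβ. The groups did not overlap, and the change was 0.54 ± 0.08 (limma adjusted p = 4.76e-05). The Rieske iron-sulfur protein gene Uqcrfs1 rose by 0.33 (limma adjusted p = 0.00384) and the core protein gene Uqcrc1 by 0.26. Uqcrc2, the other core protein gene, changed by 0.04 and was not called, nor was Uqcrq (0.32, limma adjusted p = 0.0515).

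In complex IV, Cox4i1 read 10555 and 10492 under SB505124 and 14683 and 14117 under TGFβ, without overlap (0.45 ± 0.08, limma adjusted p = 0.000261). Cox7a2, the widely expressed isoform of subunit 7a, rose by 0.56 and Cox6c by 0.54. Cox7a1 had the largest fold change of all members, from 16.2 and 10.0 to 32.6 and 35.4 (1.35 ± 0.34, limma adjusted p = 0.00337). Its groups did not overlap, but these are few reads and the added pseudocount understates its change. The summed muscle markers also moved, from 1199 and 1227 to 3961 and 4094 in WT, nearly all of it Tnnt2, with the other 4 at no more than 4.05, and their part in the Cox7a1 result was not tested. Cox7a2l, which joins complexes III and IV in supercomplexes, rose by 0.46.

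In complex V, Atp5k, subunit e at the dimer interface, read 1566 and 1806 under SB505124 and 2439 and 2672 under TGFβ. The groups did not overlap, and the change was 0.60 ± 0.09 (limma adjusted p = 2.54e-05). The genes of the catalytic head with the most reads were not called: Atp5b changed by 0.16 (limma adjusted p = 0.208) and Atp5a1 by 0.04 (limma adjusted p = 0.748). The small head and stalk genes Atp5e (epsilon, 0.55), Atp5j (F6, 0.52), Atp5d (delta, 0.43) and Atp5o (OSCP, 0.38) rose. Of the subunit c genes, Atp5g3 rose by 0.36 and Atp5g1 by 0.26, while Atp5g2 changed by 0.09 and was not called. Atp5s (0.27) and Atp5sl (0.05) were not called.

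With any 1 of the 8 libraries left out, Atp5k, Ndufs6, Ndufa1, Ndufb2, Cox7a2 and Cox4i1 kept their call in WT. Without WT SB505124 replicate 1 the calls of Ndufb4 (0.40, limma adjusted p = 0.0835), Ndufv1 (0.22, 0.116), Uqcrfs1 (0.27, 0.0719), Atp5g3 (0.31, 0.0502) and Atp5g1 (0.19, 0.216) were lost. Cox7a1 (1.02, limma adjusted p = 0.052) and Ndufv1 (0.27, 0.0529) lost theirs without WT SB505124 replicate 2, and Ndufv1 (0.20), Uqcrfs1 (0.22) and Atp5g1 (0.21) without WT TGFβ replicate 2. Ndufs1 lost its call without WT SB505124 replicate 1 (-0.28), replicate 2 (-0.18) or WT TGFβ replicate 1 (-0.16).

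Transcript length moved with this result. The members' transcripts have a median length of 786 bases (371 to 3171), against 2814 for all tested genes, and 48 of the 76 are under 1000 bases. Across the members, log2 fold change and log2 length had a Pearson correlation of -0.65 and a Spearman correlation of -0.60 (n = 76 genes, which share libraries and are not replicates). Across the 12315 other tested genes with a length these were -0.23 and -0.38. Other genes of up to 600 bases had a median change of 0.30 and 33.2% of them rose, against 0.46 and 21 of 23 members. Between 600 and 1000 bases the values were 0.30 and 47.5% for other genes, and 0.43 and 24 of 25 for members. Other genes over 4000 bases had a median of -0.21.

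The deviation was seen library by library. Relative to WT SB505124, the 881 other genes under 1000 bases had a median log2 deviation of 0.28 and 0.33 in the WT TGFβ libraries, -0.19 and -0.11 in the KO-labelled SB505124 libraries, and -0.08 and 0.04 in the KO-labelled TGFβ libraries. The members stood at 0.35 and 0.43, 0.03 and 0.08, and 0.14 and 0.26. When a smooth curve on transcript length was subtracted in each library, 19 members rose and 1 fell (15.2% and 20.1% of tested genes), with a member median of 0.13 against -0.04 for all genes. With GC content included, 29 rose and 3 fell (18.6% and 24.6%), with medians of 0.11 and -0.04. After the length correction Ndufs6 (0.31), Ndufa1 (0.31), Atp5k (0.34), Cox7a2 (0.28), Uqcrh (0.26), Sdhb (0.18) and Cox7a1 (1.08) were still called higher and Ndufs1 (-0.26) lower. Whether length has a part in the members' change was not tested beyond these corrections, which were chosen after the data were seen.

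**Figure D3:**
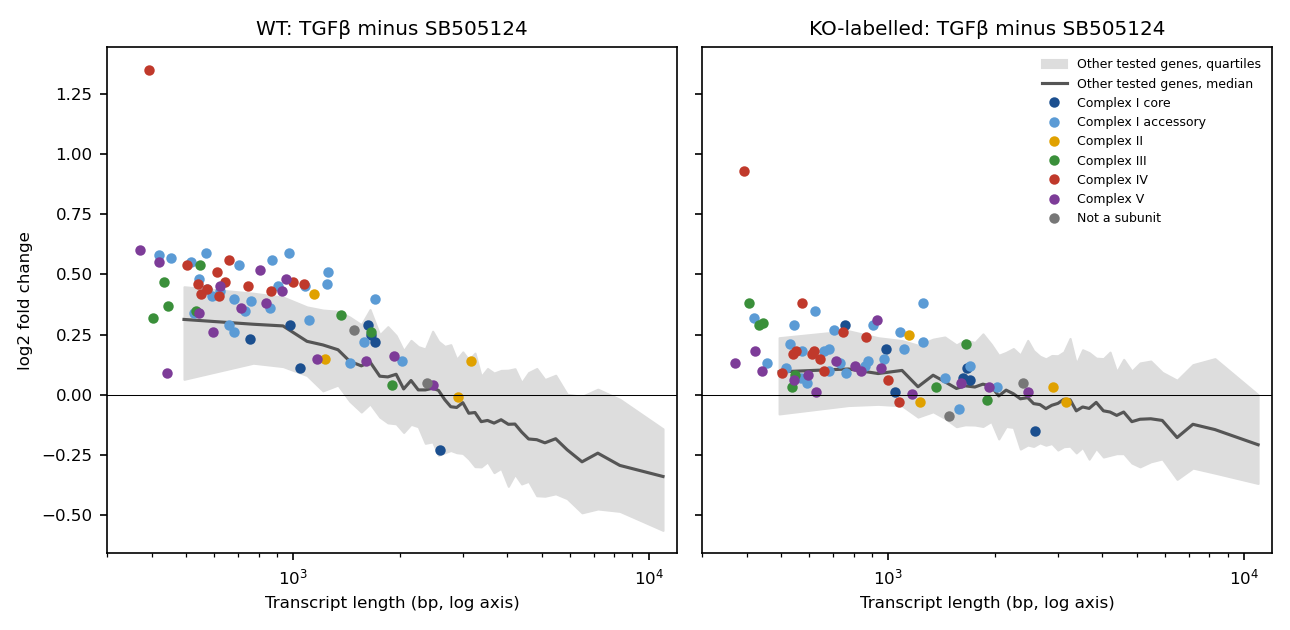
log2 fold change of TGFβ against SB505124 in WT (left) and KO-labelled cells (right) against transcript length on a log axis; coloured points are the 76 genes, the line is the median and the band the quartiles of the other tested genes in 40 length bins. In WT the line runs from 0.31 in the shortest bin to -0.34 in the longest, and most short members lie above it; in KO-labelled cells it ends at -0.21.

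In KO-labelled cells, TGFβ against SB505124 raised 16 of the 76 genes and lowered 0 (limma; 15.1% and 15.8% of tested genes rose and fell). At an unadjusted p under 0.05 no member fell, nor did any by edgeR or DESeq2. The median was 0.12, with 69 estimates above 0, against a median of -0.02 for all tested genes. The length correction left a member median of 0.00, with 38 estimates above 0 and 38 below, against -0.07 for all tested genes. With 15.1% of all genes rising, this count alone does not set the members apart. The 16 comprised 6 accessory subunits of complex I, 4 genes each of complexes III and IV, and 1 each of complexes II (Sdhb, 0.25) and V (Atp5d, 0.31). No core subunit of complex I was called, with 2 at an unadjusted p under 0.05 and 0 by edgeR and by DESeq2.

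Cox6a1, the widely expressed isoform of subunit 6a, read 3958 and 5294 under SB505124 and 5559 and 6401 under TGFβ in KO-labelled cells. The groups did not overlap, though the SB505124 libraries differed widely (0.38 ± 0.11, limma adjusted p = 0.0102). Ndufa13, an accessory subunit also known as GRIM-19, read 2081 and 2706 against 2864 and 3334 (0.38 ± 0.11, limma adjusted p = 0.0106), again with the lowest value in KO SB505124 replicate 1. Ndufa1 went from 1397 and 1402 to 1656 and 1831 (0.32 ± 0.08, limma adjusted p = 0.00814), with close replicates and no overlap. Ndufb7 (0.35), Uqcr11 (0.30) and Cox4i1 (0.26) rose too, and Cox7a1 went from 28.9 and 15.5 to 40.4 and 42.0 (0.93 ± 0.34, limma adjusted p = 0.0436).

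Of the core subunits fixed for each complex, the KO-labelled response was -0.15 for Ndufs1, 0.11 for Ndufv1, 0.03 for Sdha, 0.03 for Uqcrfs1 and 0.03 for Atp5b, none of them called. Of the 16 genes that rose, 15 had also risen in WT, which is 93.8% of the 16 and 26.3% of the 57, where 57 of all 76 members rose in WT, so nothing is read from the overlap. The 16th, Uqcrq, read 2114 and 3017 under SB505124 and 2978 and 3635 under TGFβ, so its groups overlapped (0.38, limma adjusted p = 0.0307). Single libraries decided the count: it was 2 without KO-labelled SB505124 replicate 1 and 0 without KO-labelled TGFβ replicate 2. Without the latter, Cox6a1 (0.28), Ndufa13 (0.27), Ndufb7 (0.29), Atp5d (0.27), Ndufa1 (0.24), Uqcr11 (0.22), Cox4i1 (0.19) and Cox7a1 (0.90) lost their calls, with limma adjusted p from 0.117 to 0.304. Without KO-labelled SB505124 replicate 1, Cox6a1 (0.17), Ndufa13 (0.19), Ndufb7 (0.14), Atp5d (0.16), Uqcr11 (0.12) and Cox4i1 (0.18) lost theirs. Cox7a1 lost its call also without KO-labelled SB505124 replicate 2 (0.50) or TGFβ replicate 1 (0.95), and Uqcr11 without either WT SB505124 library (0.30 each). After the length correction 1 member rose and 0 fell (13.1% and 19.4% of tested genes), and with GC content 7 rose and 2 fell (15% and 23.1%).

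The difference of the responses, KO-labelled minus WT, was called lower for 6 of the 76 genes and higher for 0 (limma). Of all tested genes, 0.568% were called lower and 2.25% higher. No member was higher at an unadjusted p under 0.05, by edgeR or by DESeq2. The member median was -0.22, against 0.01 for all tested genes, and the estimate was smaller in KO-labelled cells for 71 of the 76, against 47.2% of all tested genes. Short genes in general had smaller responses too: other genes of up to 600 bases had a median difference of -0.22 and those between 600 and 1000 bases -0.19, against -0.28 and -0.24 for members of these lengths. The member median was -0.09 after the length correction, with 61 of the 76 below 0, against -0.02 for all tested genes.

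**Figure D4:**
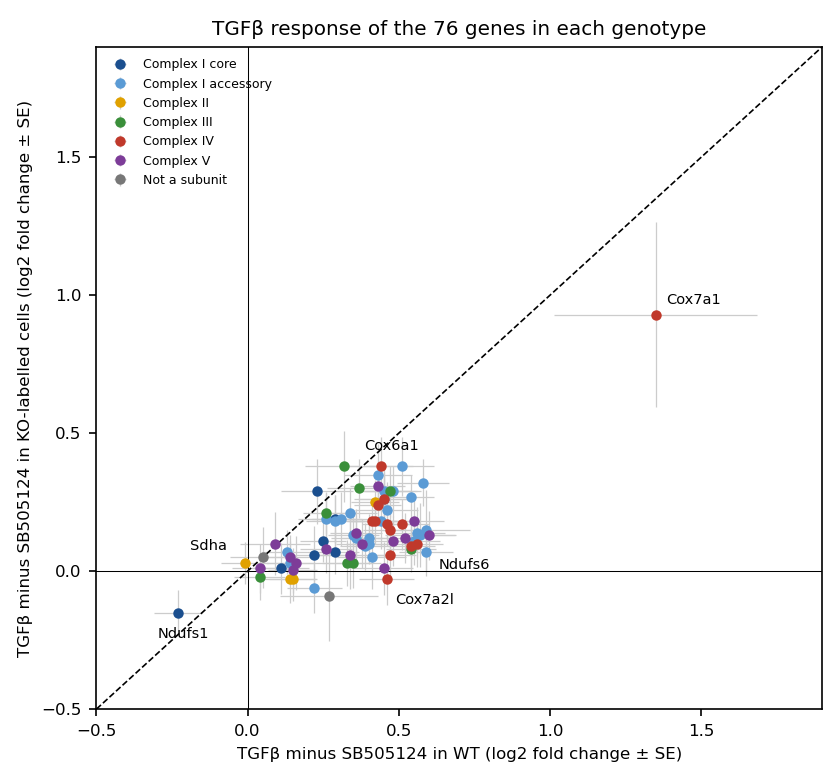
log2 fold change of TGFβ against SB505124 for each of the 76 genes in WT (horizontal) and KO-labelled cells (vertical), coloured by complex, with SE bars of the model; the dashed line marks equal responses. Of the 76 points, 71 lie below that line, and Cox7a1 stands apart at 1.35 and 0.93.

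Ndufs6 had the largest difference, -0.52 ± 0.13 (limma adjusted p = 0.0298). In KO-labelled cells it read 1438 and 1486 under SB505124 and 1432 and 1654 under TGFβ, which overlap, where the WT groups were apart. Cox6c, a small complex IV subunit, read 3059 and 3145 against 4326 and 4735 in WT, and 2654 and 2730 against 2755 and 2962 in KO-labelled cells (difference -0.46 ± 0.11, limma adjusted p = 0.0297). In both genotypes the TGFβ libraries were higher, by a wide margin in WT and a narrow one in KO-labelled cells.

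Cox7a2l read 1971 and 2258 against 2724 and 3107 in WT, and 1700 and 1616 against 1545 and 1713 in KO-labelled cells (-0.49 ± 0.13, limma adjusted p = 0.0485). Its WT groups were apart and its KO-labelled groups overlapped. Atp5k in KO-labelled cells read 1879 and 1788 against 1928 and 2075, a narrow gap (-0.48 ± 0.12, limma adjusted p = 0.046). Cox7a2 read 4132 and 3953 against 4093 and 4556 there, which overlap (-0.47 ± 0.12, limma adjusted p = 0.0445). Uqcrh read 2413 and 2407 against 2416 and 2703 there, just apart (-0.46 ± 0.12, limma adjusted p = 0.0445).

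These 6 calls lie near the threshold. Their number was 21 without WT TGFβ replicate 1, 2 without KO-labelled SB505124 replicate 1, and 0 without WT SB505124 replicate 1, WT SB505124 replicate 2, WT TGFβ replicate 2 or KO-labelled TGFβ replicate 1. After the length correction 0 members were called in either direction (1.49% of tested genes higher and 0.718% lower), and with GC content 0 higher and 2 lower (3.13% and 1.84%).

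Under SB505124, KO-labelled cells had 13 of the 76 genes higher and 7 lower than WT cells (limma), against 29.2% and 27.7% of all tested genes. The median was 0.05, against 0.01 for all tested genes. Ndufv3, an accessory subunit near the site of NADH oxidation, read 1207 and 1269 in WT and 1900 and 1811 in KO-labelled cells, without overlap (0.58 ± 0.09, limma adjusted p = 2.16e-05). Atp5s went from 115 and 104 to 169 and 163 (0.60 ± 0.16, limma adjusted p = 0.00397), also without overlap. Ndufs1 (0.33), Ndufa1 (0.33), Uqcrc2 (0.32) and Ndufa3 (0.31) were higher as well.

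The 7 genes that were lower in KO-labelled cells under SB505124 were Ndufb6 (-0.61), Uqcrh (-0.46), Cox7a2l (-0.35), Atp5g2 (-0.31), Ndufs7 (-0.29), Atp5d (-0.29) and Cox6c (-0.20). Ndufb6, a membrane-arm subunit of complex I, read 1188 and 1245 in WT and 717 and 880 in KO-labelled cells (limma adjusted p = 2.79e-05), with no overlap. The core genes Ndufv1 (-0.04), Sdha (0.03), Cox4i1 (-0.04) and Atp5b (-0.01) were not called, while Uqcrfs1 was higher by 0.28.

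The higher count under SB505124 was 5 without WT SB505124 replicate 1, and the lower count was 2 without WT SB505124 replicate 2 and 3 without KO-labelled SB505124 replicate 1. Ndufv3, Atp5s, Ndufs1, Ndufa1, Ndufb6 and Uqcrh kept their call with any 1 library left out. Without WT SB505124 replicate 1, Uqcrc2 (0.25), Ndufa3 (0.24), Uqcrfs1 (0.22), Ndufs7 (-0.37) and Cox6c (-0.22) lost theirs. Without WT SB505124 replicate 2, Cox7a2l (-0.25), Atp5d (-0.25), Atp5g2 (-0.18), Ndufs7 (-0.22) and Cox6c (-0.18) did. Without KO-labelled SB505124 replicate 1, Atp5d (-0.15), Atp5g2 (-0.12), Ndufs7 (-0.11) and Cox6c (-0.18) did, and Cox6c (-0.22) did without replicate 2. After the length correction 33 members were higher and 3 lower (34.1% and 24.3% of tested genes), with a member median of 0.17 against 0.08. With GC content 44 were higher and 5 lower (36.5% and 25.9%), with medians of 0.19 and 0.07.

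Under TGFβ, KO-labelled cells had 30 of the 76 genes lower and 3 higher than WT cells (limma), against 30.2% and 32.7% of all tested genes. A lower count so near the background is not by itself a result about the members. The median was -0.19, against 0.01 for all tested genes. Of the 15 complex V genes 10 were lower, with 9 of 27 accessory subunits of complex I, 5 of 13 in complex IV, 3 of 8 in complex III, 2 of 4 in complex II and 1 of 7 core subunits. With the length correction 0 complex V genes were lower and 4 higher (median -0.01), and with GC content 2 were lower and 4 higher (0.01). This comparison shares the WT TGFβ libraries with the response in WT and the difference of responses.

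Uqcrh had the largest fall under TGFβ, from 4568 and 5094 in WT to 2416 and 2703 in KO-labelled cells (-0.92 ± 0.08, limma adjusted p = 2.4e-08). Cox7a2l read 2724 and 3107 in WT and 1545 and 1713 in KO-labelled cells (-0.84 ± 0.09, limma adjusted p = 2.54e-07). Both genes had wide gaps between the groups. Ndufb6 (-0.72), Cox6c (-0.66), Ndufb2 (-0.56) and Atp5e (-0.47) followed.

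The 3 genes that were higher under TGFβ were Ndufs1 (0.41), Ndufv3 (0.30) and Uqcrc2 (0.26), all of which were also higher under SB505124. Ndufs1 read 2351 and 2580 in WT and 3317 and 3219 in KO-labelled cells, without overlap (limma adjusted p = 0.000232). Of the other core genes, Cox4i1 was lower (-0.23, limma adjusted p = 0.0198), while Ndufv1 (-0.18), Sdha (0.07), Uqcrfs1 (-0.02) and Atp5b (-0.13) were not called. The subunit c genes Atp5g3 (-0.41), Atp5g2 (-0.31) and Atp5g1 (-0.21) were all lower. With transcript length corrected for, Atp5g1 (0.08) and Atp5g2 (0.02) turned direction, as did Cox4i1 (0.03), and none of the 3 was called. With GC content Atp5g1 (0.17, limma adjusted p = 0.0333) and Cox4i1 (0.14, limma adjusted p = 0.0461) were called higher, the opposite of their call without it, and Atp5g2 (0.12) was not called.

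The sign of the member median under TGFβ changed with the length correction, to a value near the median of all tested genes. After the length correction 20 members were higher and 4 lower (33.8% and 26.6% of tested genes), with a median of 0.08 against 0.06. With GC content 28 were higher and 8 lower (36.8% and 28.8%), with medians of 0.10 and 0.06. The count of lower genes was 13 without KO-labelled TGFβ replicate 1, and the count of higher genes was 1 without WT TGFβ replicate 1 or KO-labelled TGFβ replicate 2 and 6 without WT TGFβ replicate 2. Uqcrh, Cox7a2l, Ndufb6, Cox6c, Ndufb2, Atp5e, Atp5g3 and Ndufs1 kept their call with any 1 library left out. Without WT TGFβ replicate 1, Ndufv3 (0.17), Uqcrc2 (0.16), Cox4i1 (-0.21) and Atp5g2 (-0.28) lost theirs. Without KO-labelled TGFβ replicate 1, Uqcrc2 (0.26), Cox4i1 (-0.16), Atp5g1 (-0.12) and Atp5g2 (-0.21) did, and without replicate 2 Ndufv3 and Uqcrc2 (0.26 each) did. Atp5g1 lost its call also without WT TGFβ replicate 2 (-0.16) or either WT SB505124 library (-0.21 each).

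**Figure D5:**
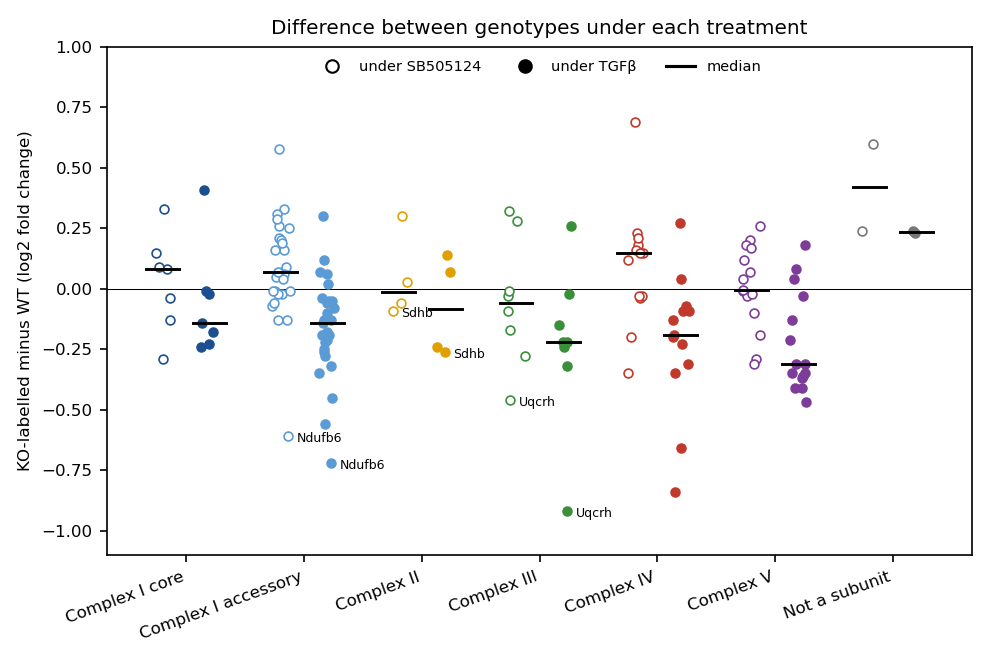
log2 fold change of KO-labelled against WT cells for each of the 76 genes by complex, under SB505124 (open points) and TGFβ (filled points), with medians as bars. Uqcrh, Ndufb6 and Sdhb, the members on chromosome 4, are named; under TGFβ the complex V median is -0.31 before and -0.01 after the length correction.

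Position on the genome moved with part of the genotype difference. The members lie on 19 chromosomes, with 0 on chromosome 14. The 752 tested genes of chromosome 4 had a median KO-labelled minus WT difference of -0.69 under SB505124 and -0.68 under TGFβ, and the 401 genes of chromosome 14 medians of -0.62 and -0.58. The 3 members on chromosome 4 were Uqcrh (-0.46 and -0.92), Ndufb6 (-0.61 and -0.72) and Sdhb (-0.09 and -0.26). Without the genes of both chromosomes 73 members remained, of which 27 were lower and 3 higher under TGFβ. The members on chromosome 4 are not in these counts, and the share of all tested genes in this fit is not given here. Whether these shifts reflect the number of gene copies was not tested.

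Neighbouring transcripts limit some of these values. The library kit does not mark the strand, and 24 of the 76 genes overlap exons of another gene on the opposite strand. Among them are Ndufs6 (Mrpl36), Cox6c (Vps13b), Ndufb6 (Smim27), Ndufb2 (Braf) and Atp5j (Gabpa). Reads inside the shared stretches cannot be told apart by strand, while reads elsewhere in these genes are not affected. The lengths of the shared stretches are not given here.

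Subunits and partners that the symbol rule does not cover were described with the members. All 6 listed subunits or partners outside the rule rose in WT (median 0.37), with 0 of 6 called in KO-labelled cells (0.07). Among them, 2010107E04Rik, a small subunit of ATP synthase, rose by 0.68 in WT and its response differed by -0.58 in KO-labelled cells (limma adjusted p = 0.0304). The counts of this and the following lists stand against 20.2% of all tested genes higher and 23.2% lower in WT. In KO-labelled cells these shares were 15.1% and 15.8%. Differences between lists were not tested. Changes in WT moved with transcript length across the tested genes, and the values of these lists are without the length correction. Of 14 genes for assembly factors of complex I, 2 rose and 1 fell in WT (median 0.07) and 0 rose and 2 fell in KO-labelled cells (-0.12). Of 30 for complexes II to V, 12 rose and 2 fell in WT (0.17), among them Uqcc2 (0.44) and the copper chaperone gene Cox17 (0.46) up and Taco1 (-0.62) down. In KO-labelled cells 1 of these 30 rose and 2 fell.

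Of 20 regulators of mitochondrial biogenesis, 2 rose and 6 fell in WT (median -0.12), and 1 rose and 4 fell in KO-labelled cells (-0.07). Ppargc1a, a coactivator of respiratory genes, fell by 1.80 in WT and by 0.79 in KO-labelled cells, and its responses differed by 1.01 (limma adjusted p = 0.0255). Of 17 genes of the tricarboxylic acid cycle, 1 rose and 3 fell in WT (0.01), and of 17 genes of glycolysis 3 rose and 1 fell (0.05), led by the hexokinase gene Hk2 (1.52). Of 13 genes for ubiquinone synthesis 4 rose and 0 fell in WT (0.03), of 17 for import and cristae 4 rose and 1 fell (0.07), and of 10 hypoxia response genes 5 rose and 2 fell (0.36), with Ddit4 at 2.41.

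The 2 ribosomal families, whose transcripts are also short, were set beside the members as a description. In WT, TGFβ raised 40 of 77 mitochondrial ribosomal protein genes (median 0.26) and 67 of 75 cytosolic ones (0.41), against 57 of 76 members (0.40). In KO-labelled cells 5, 9 and 16 rose (0.07, 0.13 and 0.12). For KO-labelled against WT under SB505124, 22 mitochondrial and 45 cytosolic ribosomal genes were lower (-0.09 and -0.27), against 7 members (0.05). Of all tested genes 27.7% were lower there. Under TGFβ 44 and 71 were lower (-0.30 and -0.55), against 30 members (-0.19) and 30.2% of all tested genes. After the length correction 55 of 75 cytosolic genes were lower in this last comparison (-0.29), against 4 of 76 members (0.08) and 26.6% of all tested genes. Differences between these families were not tested.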

How the data were processed

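RNA of 8 NMuMG libraries was sequenced with a TruSeq v2 kit, per the labels' protocols. The authors deposited 1 signal value per gene and library, read counts divided by size factors; the submitters' processing notes name FastQC 0.11.5, HTSeq 0.6.1p1, DESeq2 3.4 and mm10, and the aligner is not given in the sources used here. Values were whole multiples of 1 step per library (100% within 0.01 reads), which gave reads and size factors (0.875 to 1.16).

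Genes with a mean of at least 10 (12498) were tested on log2(value + 1) with limma 3.58.1 (R 4.3.3), a variance trend and all 8 libraries in 1 model of 4 group means (4 residual and 14.3 prior degrees of freedom). Adjusted p-values are Benjamini-Hochberg values over every tested gene of a contrast (threshold 0.05). Fold changes on this scale understate low genes. edgeR 4.0.16 and DESeq2 1.42.0 were run on the recovered reads (counts), rounded to whole numbers, as alternatives. Transcript lengths are those of GENCODE M21, taking the shortest well supported principal transcript. The length and GC corrections subtract natural splines of 4 degrees of freedom (12391 genes). The procedure was tested on simulated data.

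Members, lists and tests were chosen with earlier results of these data known. In each comparison, values are given for up to 6 called members with the largest rises and falls whose groups do not overlap and whose mean reaches 50, for 1 core subunit per complex, for tissue isoforms, for the subunit c genes, for the extremes of level per length and for leading genes of the other lists; other members are named for their role. The 26 symbols turned into dates and 4 rows sharing a name were tested and not named. The values of 1 member are included in the counts and medians but are not reported here.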

Additional observations from a re-analysis of the deposited data

Results flagged for a closer look

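For 6 genes the response to TGFβ differed between genotypes by the test of the difference itself (limma, all 8 libraries, KO-labelled minus WT, log2 ± SE). These were Ndufs6 (-0.52 ± 0.13, adjusted p = 0.0298), Cox7a2l (-0.49 ± 0.13, adjusted p = 0.0485), Atp5k (-0.48 ± 0.12, adjusted p = 0.046), Cox7a2 (-0.47 ± 0.12, adjusted p = 0.0445), Cox6c (-0.46 ± 0.11, adjusted p = 0.0297) and Uqcrh (-0.46 ± 0.12, adjusted p = 0.0445). Of 21 alternatives, the call was lost in 7 for Ndufs6, 9 for Cox6c, 11 for Cox7a2 and 13 each for Atp5k and Cox7a2l, and in 12 of 20 for Uqcrh. After the length correction 0 members were called in this contrast. Each group held 2 libraries, too few for a check of single outlying libraries.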

How the results depend on the processing

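Of 22 alternatives, 19 were planned and 3 were chosen after seeing the data: the length correction, the length and GC correction, and leaving out chromosomes 4 and 14. Leaving out 1 library at a time gave 38 to 60 higher and 0 to 1 lower genes for TGFβ in WT, 0 to 24 higher in KO-labelled cells, 0 to 21 lower for the difference of responses, 5 to 18 higher and 2 to 9 lower for the genotypes under SB505124, and 1 to 6 higher and 13 to 35 lower under TGFβ; a lone library is then assumed to vary like the other groups. Without a variance trend the counts were 46 higher and 0 lower (WT response), 1 higher (KO-labelled response), 0 lower (difference) and 3 lower (genotypes under SB505124). Without the filter on low values they were 4 higher (KO-labelled response) and 0 lower (difference). Equal totals gave 6 higher and the 4 libraries alone 4 higher for the KO-labelled response, and TMM factors 2 lower for the difference. The length correction gave 19 higher (WT), 1 higher (KO-labelled), 0 lower (difference), 33 higher and 3 lower (SB505124) and 20 higher and 4 lower (TGFβ). With GC content they were 29 higher and 3 lower, 7 higher and 2 lower, 2 lower, 44 higher, and 28 higher and 8 lower. The replicate block gave 57 higher and 1 lower (WT), 14 higher (KO-labelled), 3 lower (difference), 17 higher and 7 lower (SB505124) and 4 higher and 34 lower (TGFβ). Deviations of same-numbered libraries correlated from -0.199 to 0.198 over the 6 pairs of groups, so the numbers are not taken to pair samples. Of 87 named values, 54 were called; over 1887 alternative values 201 calls were lost, 19 were gained and 19 with a call in at least 1 of both fits turned direction, all 19 under the length corrections; another 47 changed sign without a call in either fit. By the length correction these were, in WT, Atp5g1 (-0.02), and, under TGFβ between genotypes, Cox4i1 (0.03), Atp5g1 (0.08) and Atp5g2 (0.02). With GC content they were, in WT, Ndufv1 (-0.02), Atp5g1 (-0.13) and Atp5g2 (-0.30); in KO-labelled cells Atp5d (-0.06), Uqcr11 (-0.02), Cox4i1 (-0.04) and Atp5g1 (-0.18); between genotypes under SB505124 Ndufs7 (0.08), Atp5d (0.08), Ndufv1 (0.21), Cox4i1 (0.24) and Atp5g1 (0.23), and under TGFβ Cox4i1 (0.14), Atp5g1 (0.17) and Atp5g2 (0.12). The cause of these shifts was not tested. With 2 libraries a group, small changes can be missed, and depth limits mainly Cox7a1 and the 5 rows under the mean of 10.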
